A study of Mus musculus with 32 samples.

Results

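Immediate early genes are the genes a cell transcribes within minutes of a stimulus, before any new protein has been made. Of the 38740 gene symbols in the table, 10 such genes, chosen by name, are described here: Fos, Fosb, Jun, Junb, Jund, Atf3, Egr1, Nr4a1, Ier2 and Dusp1. All 10 were matched. The cells came from the mouse subventricular zone, where new neurons are made after birth, at postnatal day 21. There were 4 libraries made from 10 pooled cells each (pools 1 to 4) and 28 libraries made from a single cell each (cells 1 to 28). The labels gave the same tissue and age to every library, and named no strain, genotype, sex, animal, sort or treatment. With no animal named, cells are not replicates, and neither they nor the pools were put to a statistical test.

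Stimuli reach these genes through the MAP kinase cascades, calcium and cyclic AMP, which act on factors already present in the nucleus, such as SRF and CREB. Fos and Fosb proteins pair with Jun, Junb or Jund to form AP-1, the dimer that carries the response to later genes. Depolarised neurons, growth factor-treated cells and inflamed or wounded tissue all transcribe them, and so does tissue that has been cut and digested to free single cells. Whether a level here reflects the state of the cell in the animal or its handling was not tested: the labels named no stimulus and no undissociated tissue.

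Levels are FPKM, which are fragments per transcript length and per library size, and found means an FPKM of 1 or more. Between 10478 and 12870 genes were found per pool and between 2107 and 10169 per cell, with a median of 4986. Cell kinds were not given by the authors. They were rebuilt from marker lists that held none of the 10 genes, and a cell is called "like" the kind whose markers were highest. This gave 8 endothelial-like cells (cells 1, 2, 3, 6, 7, 8, 16 and 17), 3 microglia-like cells (18, 19 and 20), 3 ependymal-like cells (9, 10 and 15), 3 oligodendrocyte-like cells (4, 12 and 13), 2 astrocyte-like cells (11 and 14), 1 choroid plexus-like cell (5) and 7 neuroblast-like cells (22 to 28). Cell 21 was left unnamed, since its kind depended on how low values were treated. Its highest list was that of cycling genes, at a mean log2(FPKM + 1) of 7.60, against 4.08 for microglial and 3.75 for neuroblast markers. The cycling list names a state and was not used as a kind. Cell 22 was neuroblast-like by 11 of 13 markers, but Dcx, the defining neuroblast gene, was at 0.0582 FPKM there and between 24.1 and 564 FPKM in cells 23 to 28. It also held 10 of 12 microglial markers, with C1qa, C1qb and C1qc at 30.5, 14.9 and 27.3 FPKM. Neuroblast-like cell 25 held 6 of 12 microglial markers, with C1qb at 142.6 FPKM and C1qc at 133.6 FPKM. Cell 3 was endothelial-like by 12 of 12 markers and also held 9 of 12 microglial markers. Neuroblast-like cell 27 held 2 of 12 microglial markers at a summed level of 3234 FPKM, with P2ry12 at 990.3 FPKM, against 2.63 to 36.5 FPKM in the other neuroblast-like cells, and C1qa at 0. Cells 18 to 22 and cells 23 to 28 are called 2 library sets here. The labels name no such sets, which were inferred from the values: within a set, genes high in one library recurred at a low level in the others, so values under a few FPKM there are uncertain. All microglia-like and neuroblast-like cells lay in these sets, so for them cell kind and library set cannot be told apart. The other 17 cells lay outside both sets.

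Promoters of 4 of the genes are shown because TGACG, the core of the CRE to which CREB binds, was present in 6 of the 8 promoters searched, as RefSeq places their starts. Of the 10 genes, Ier2 had no promoter entry, and Egr1 was left out beforehand and not searched. The sequences are from RefSeq on GRCm38.p6 and are written 5′ to 3′ on the strand of the gene, ending just before its start. Capitals mark CRE cores (TGACG, or CGTCA on the opposite strand) and, in Dusp1, the full CRE (TGACGTCA). Fos and Junb were the pair most alike over cells, Nr4a1 was found in the fewest cells, and Dusp1 alone held a full CRE. The 4 were picked after their values had been seen. They lie at chr12:85473640-85473889 on the plus strand (Fos), chr8:84978749-84978998 on the minus strand (Junb), chr15:101266596-101266845 on the plus strand (Nr4a1) and chr17:26508520-26508722 on the minus strand (Dusp1). For Dusp1 the last 47 bases of the RefSeq window are left out, since the deposited table places them inside the gene.
Fos: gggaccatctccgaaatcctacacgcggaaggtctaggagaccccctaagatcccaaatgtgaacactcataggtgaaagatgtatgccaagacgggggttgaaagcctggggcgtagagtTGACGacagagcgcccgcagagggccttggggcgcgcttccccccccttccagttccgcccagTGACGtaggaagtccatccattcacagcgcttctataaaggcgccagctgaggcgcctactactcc
Junb: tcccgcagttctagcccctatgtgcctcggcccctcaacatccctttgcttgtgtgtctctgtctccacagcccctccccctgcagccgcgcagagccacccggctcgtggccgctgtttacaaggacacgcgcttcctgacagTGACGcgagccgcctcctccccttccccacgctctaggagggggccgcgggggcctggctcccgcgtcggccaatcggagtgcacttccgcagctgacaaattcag
Nr4a1: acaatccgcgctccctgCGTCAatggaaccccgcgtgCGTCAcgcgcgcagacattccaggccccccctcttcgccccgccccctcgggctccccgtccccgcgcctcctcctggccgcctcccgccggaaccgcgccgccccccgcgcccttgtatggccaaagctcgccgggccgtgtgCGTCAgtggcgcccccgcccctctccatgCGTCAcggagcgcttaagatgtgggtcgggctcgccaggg
Dusp1: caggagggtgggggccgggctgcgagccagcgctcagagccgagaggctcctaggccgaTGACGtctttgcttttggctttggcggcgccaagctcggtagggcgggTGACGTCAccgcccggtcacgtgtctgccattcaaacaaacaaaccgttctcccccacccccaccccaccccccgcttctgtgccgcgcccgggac

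The 250 bases before the RefSeq start were searched on both strands in 8 genes, Egr1 and Ier2 not being among them. A CRE core (TGACG) was present in 6 of the 8 (Fos, Fosb, Junb, Atf3, Nr4a1 and Dusp1), against 17.8% of all 32851 promoters of that length. The only core of Atf3 spanned bases 7 to 3 before the RefSeq start, which the deposited table places inside the gene. By the start in that table Atf3 would not be counted. The full CRE, which contains the core, was present in 1 of 8, Dusp1, against 1.55% of all promoters. The AP-1 site TGACTCA, through which AP-1 acts on its targets, was present in 0 of 8, against 4.46%. The CArG box, the element SRF binds, was also present in 0 of 8, against 1.47%. At shares this low 0 of 8 tells little, and bases further upstream were not searched. The 2 CRE cores of Fos ended 125 and 62 bases before the start, and the 4 of Nr4a1 lay on the opposite strand of the gene, between bases 233 and 36 before it. The full CRE of Dusp1 spanned bases 143 to 136. These are matches of letters in a window, and say nothing of binding in these cells.

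Each of the 10 genes was found in several cells and in all 4 pools. Egr1 and Ier2 were each found in 24 of 28 cells (85.7%, exact Clopper-Pearson 95% interval 67.3 to 96.0), Fos and Jun in 23 (82.1%, 63.1 to 93.9) and Dusp1 in 22 (78.6%, 59.0 to 91.7). Junb and Jund were each found in 18 cells (64.3%, 44.1 to 81.4), Fosb and Atf3 in 14 (50%, 30.6 to 69.4), and Nr4a1 in 9 (32.1%, 15.9 to 52.4). With values under 2% of a gene's highest value in its library set put at 0, Egr1 was found in 20 cells, Ier2 in 18, Jun in 19, Dusp1 in 17 and Fos in 22. Few genes were found that widely: 2.70% of genes were found in as many cells as Egr1 and Ier2 or in more, 4.37% in as many as Fos and Jun, and 34.8% in as many as Nr4a1. A cell held a median of 7 of the 10 genes. The lowest was cell 14, astrocyte-like, with 2 genes found, and 5 cells (3, 8, 12, 16 and 17) held all 10. Together the 10 genes took between 0.000965% of all FPKM, in cell 14, and 1.61%, in cell 20. Being found was thus common, and the level differed between cells by orders of magnitude.

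**Figure D1:**
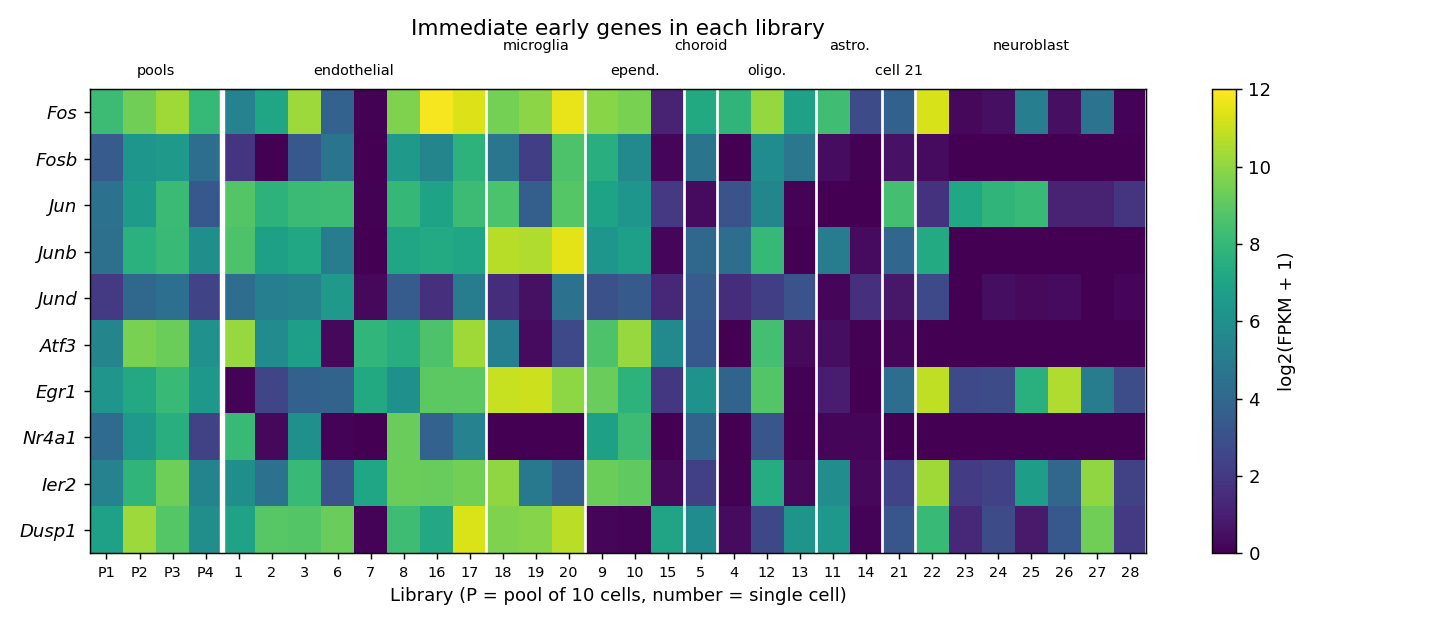
Level of each of the 10 immediate early genes (rows) in the 4 pools (P1 to P4) and the 28 single cells (columns, numbered and grouped by kind), as log2(FPKM + 1). The 8 endothelial-like and 3 microglia-like columns are mostly bright, and Fosb, Junb, Atf3 and Nr4a1 are at 0 in cells 23 to 28.

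Fos (chr12:85473890-85477273, plus strand, GRCm38) encodes the founding Fos protein, which needs a Jun partner to bind DNA. Its level was 297, 666, 1265 and 259 FPKM in pools 1 to 4. In the 28 cells it ran between 0.0656 FPKM in cell 7 and 3708 FPKM in cell 16, with a median of 146 FPKM. After cell 16 came cell 20 at 3121 FPKM, cell 17 at 2657 FPKM and cell 22 at 2495 FPKM, so that the highest 4 cells included endothelial-like, microglia-like and neuroblast-like cells. Fos was above 0 in every cell and below 1 FPKM in 5: cell 7 and cells 23, 24, 26 and 28. It was the highest of the 10 genes in 13 cells, more often than any other of them.

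Fosb (chr7:19302721-19310045, minus strand), whose protein takes the same place in the dimer, was at a lower level. It had 10.1, 78.5, 85.1 and 19.5 FPKM in pools 1 to 4. Over the 28 cells it had a lowest value of 0, a median of 1.48 FPKM and a highest value of 399 FPKM, in cell 20, and 3 cells were above 100 FPKM. It was listed at 0 in 8 cells, which were cells 2 and 4 and all of cells 23 to 28. An exact 0 in this table can be a failed estimate: genes of the housekeeping list were also at 0 in 40 of 336 gene and cell pairs.

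Jun (chr4:95049034-95052222, minus strand, 1 exon) encodes the strongest activator among the Jun proteins. It was at 21.3, 95.2, 288 and 8.83 FPKM in pools 1 to 4. Among single cells it was at 0.0213 FPKM in the lowest, at a median of 102 FPKM, and at 449 FPKM in the highest, cell 20, followed by cell 1 at 447 FPKM. Outside the library sets Jun was below 1 FPKM in 5 of the 17 cells (5, 7, 11, 13 and 14), and 3 more (15, 4 and 12) were at 2.95, 7.34 and 44.7 FPKM. In cell 11 its 0.0235 FPKM amounted to about 0.993 of a fragment by the depth estimated for that library, and in cell 7 its 0.0380 FPKM to about 1.84 fragments, whereas the 293 FPKM of cell 3 amounted to about 17890. Jun was the highest of the 10 genes in cells 21, 23, 24 and 25.

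Junb (chr8:84976909-84978748, minus strand), whose protein can replace Jun in the dimer and is the weaker activator, was the gene that set one kind of cell apart. It was at 20.8, 199.998, 283 and 62.6 FPKM in pools 1 to 4. Over the 28 cells its lowest value was 0, its median 32.4 FPKM and its highest 2936 FPKM. The highest 3 cells were the 3 microglia-like cells, cell 20 at 2936 FPKM, cell 18 at 1678 FPKM and cell 19 at 1501 FPKM, and the next was cell 1 at 404 FPKM. Junb was listed at 0 in cells 7 and 13 and in all of cells 23 to 28.

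Jund (chr8:70697739-70700616, plus strand, 1 exon), the Jun gene known for steady rather than induced transcription in many tissues, stayed low throughout. It was at 3.11, 15.7, 19.97 and 4.47 FPKM in pools 1 to 4. Its lowest value in a cell was 0, its median 2.10 FPKM and its highest 86.5 FPKM, in cell 6, and no cell reached 100 FPKM. The antisense gene Gm11175 overlaps Jund and was found in 8 cells. Their levels had a Spearman correlation of 0.66 over the 28 cells, and as the strand setting is not given in the sources used here, reads of the 2 genes cannot be told apart. In 23 cells at least 1 of Fos and Fosb was found, and each of these also held at least 1 of Jun, Junb and Jund, the partners that complete the dimer. A Jun gene was found in 27 of the 28 cells, so this joint finding was almost given in advance. In cell 27 it rested on Jun alone at 1.26 FPKM, under 2% of the 274 FPKM of cell 25 in the same library set.

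Atf3 (chr1:191170296-191183340, minus strand), a stress-induced member of the ATF family whose protein can also pair with Jun, varied widely. It was at 42.4, 773, 641 and 65.9 FPKM in pools 1 to 4. In single cells its lowest value was 0, its median 2.84 FPKM and its highest 1255 FPKM, in cell 17. Cell 10, at 1133 FPKM, and cell 1, at 1124 FPKM, came next, and 9 cells were above 100 FPKM. It was listed at 0 in cell 4 and in all of cells 23 to 28, and was between 0 and 1 FPKM in 7 more. Between these extremes lay cells 20, 5, 18, 15 and 2, at 5.33, 9.02, 35.2, 52.9 and 54.1 FPKM.

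Egr1, on chromosome 18, encodes a zinc finger factor widely used as a mark of stimulated neurons. It was at 76.7, 149, 281 and 82.5 FPKM in pools 1 to 4. Over the 28 cells its lowest value was 0.0225 FPKM, its median 48.3 FPKM and its highest 2153 FPKM, in cell 19, followed by cell 18 at 2056 FPKM and cell 22 at 1872 FPKM. Those 3 cells were of 1 library set, and in the other set cell 26 was at 1525 FPKM. Outside the sets the highest cell, cell 9, was at 617 FPKM. Egr1 was below 1 FPKM in cells 1, 11, 13 and 14.

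Nr4a1 (chr15:101266846-101274792, plus strand) encodes an orphan nuclear receptor that works without a known ligand. It was at 17.6, 88.2, 188 and 4.06 FPKM in pools 1 to 4. Single cells had a lowest value of 0, a median of 0.0154 FPKM and a highest value of 616 FPKM, in cell 8, followed by cell 10 at 297 FPKM and cell 1 at 281 FPKM. All 9 cells in which it was found lay outside the library sets, and it was listed at 0 in each of cells 18 to 28. Of 18856 genes, 47.8% were listed at 0 in all of cells 18 to 22, and 33.4% in all of cells 23 to 28. A share for both sets together was not taken. Among genes found in at least 10 of the 17 cells outside the sets, 7.59% were listed at 0 in all of cells 23 to 28. Nr4a1 was found in 9 of those 17.

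Ier2 (chr8:84661331-84662852, minus strand, 1 exon) encodes a small nuclear protein of the early response. It was at 38.5, 233, 645 and 41.7 FPKM in pools 1 to 4. Its lowest value in a cell was 0.0514 FPKM, its median 43.6 FPKM and its highest 1244 FPKM, in cell 22, followed by cell 27 at 1020 FPKM and cell 18 at 1019 FPKM. The lowest value, in cell 4, amounted to about 1.01 fragments. Ier2 was the highest of the 10 genes in cell 27.

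Dusp1 (chr17:26505590-26508519, minus strand) encodes the phosphatase that switches MAP kinases off again, and so acts as the brake among these genes. It was at 114, 1220, 463 and 60.4 FPKM in pools 1 to 4. Single cells had a lowest value of 0.0700 FPKM, a median of 77.4 FPKM and a highest value of 2571 FPKM, in cell 17, followed by cell 20 at 1711 FPKM. High Fos did not always go with high Dusp1. In the ependymal-like cells 9 and 10, Dusp1 was at 0.103 and 0.0893 FPKM, while Fos was at 936 and 761 FPKM and Ier2 at 625 and 540 FPKM. In endothelial-like cell 6 the order was the other way round, with Dusp1 at 613 FPKM and Fos at 12.8 FPKM.

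Kinds of cell were compared by the difference in mean log2(FPKM + 1), a scale that understates differences of low genes, and a gene counted as higher or lower past 2-fold at a difference of 1. In the endothelial-like cells, 9 of the 10 genes were higher than in the other 20 cells past 2-fold and 0 were lower, against 17.8% of all genes higher and 12.8% lower. The median difference of the 10 was 2.41, against -0.09 over all genes tested. Atf3 had the largest difference, 4.88, and was at a median of 209 FPKM in the 8 endothelial-like cells (0.180 to 1255 FPKM) and 0.198 FPKM in the other 20 (0 to 1133 FPKM). Dusp1 followed at 3.10, Nr4a1 at 2.98 and Jun at 2.88. Egr1 was the exception, with a difference of -0.70. The groups overlapped for all 10 genes, and they overlapped for nearly all genes, with 0.239% entirely above and 0.0212% entirely below. Cell 7, with 3 genes found, held the lowest endothelial-like value of Fos, Jun, Junb, Jund, Nr4a1 and Dusp1.

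Because the library sets held only other kinds, the endothelial-like cells were also set against the other 9 cells outside the sets. There 7 of the 10 genes were higher past 2-fold and 0 lower, against 11.1% of all genes higher and 27.6% lower, with a median difference of 2.01. Dusp1 (4.41) and Jun (4.32) led. Jun was at 124 to 447 FPKM in 7 endothelial-like cells and at 0.0380 FPKM in cell 7, whereas in the other 9 cells it ran between 0.0213 and 125 FPKM. Fos, Fosb and Egr1 differed by 0.35, 0.44 and 0.86, so the genes that were higher were the Jun genes, Atf3, Nr4a1, Ier2 and Dusp1. Housekeeping genes were lower in this comparison, with 3 of 12 higher and 6 lower past 2-fold and a median of -0.93. Against all 20 other cells 4 were higher and 3 lower. Without cell 3, which also held microglial markers, the mean of the 10 genes in endothelial-like cells stood 2.17 above the other 20 cells, and 2.29 with it.

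In the microglia-like cells, 6 of the 10 genes were higher than in the other 25 cells past 2-fold, against 6.81% of all genes. Another 2 were lower, Atf3 (-1.05) and Nr4a1, which was listed at 0 in all 3, against 35.4% of all genes. Junb differed most, by 7.11, and was the only one of the 10 whose groups did not overlap: 1501 to 2936 FPKM in the 3 microglia-like cells, and at most 404 FPKM in the others. Such a separation upward was seen for 0.451% of all genes. Housekeeping genes in this comparison were mostly lower, with 3 of 12 higher and 7 lower past 2-fold and a median of -1.49. Egr1 differed by 5.61, with 1005 to 2153 FPKM in microglia-like cells and a median of 19.1 FPKM in the others, of which cell 22 reached 1872 FPKM. Dusp1 differed by 5.26 and Fos by 4.36, with Fos at 723, 956 and 3121 FPKM in cells 18, 19 and 20. Fosb differed by 2.83 and Jun by 2.29, while Ier2 (0.90) and Jund (-0.05) stayed within 2-fold.

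The microglia-like cells were also set against cells 21 and 22, which belong to the same library set. Of the 9 genes tested there, 7 were higher past 2-fold and 0 lower, against 29.3% of all genes higher and 44.1% lower. Junb, at 1501 FPKM or more in the microglia-like cells, did not overlap with cells 21 and 22, at 162 FPKM or less, and neither did Dusp1, at 823 FPKM or more against 272 FPKM or less. Fosb and Atf3 did not overlap as deposited either, but these separations rested on 3.75 against 0.520 FPKM and 0.279 against 0.174 FPKM. Neither separation remained under the 2% limit. Of all genes, 19.6% were entirely above in this comparison. Cell 22 itself had Fos at 2495 FPKM, Egr1 at 1872 FPKM and Ier2 at 1244 FPKM, so high levels of these 3 genes were not confined to the microglia-like cells of the set. Housekeeping genes were also higher on balance in this comparison, with 3 of the 9 tested higher and 2 lower past 2-fold and a median of 0.73.

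In the neuroblast-like cells, 0 of the 10 genes were higher than in the other 21 cells past 2-fold and 8 were lower, against 9.68% of all genes higher and 25.1% lower. The median difference was -2.44, against -0.36 over all genes. The lower genes were Atf3 (-4.89), Junb (-4.71), Fos (-4.33), Fosb (-3.51), Jund (-2.25), Dusp1 (-1.87), Jun (-1.09) and Nr4a1, which was listed at 0 in all 7. Egr1 (0.50) and Ier2 (0.04) were close to the other cells. The housekeeping list was lower as well, with 8 of 12 genes lower and 2 higher and a median of -1.39. The part of RNA amount in the lower levels was not tested.

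Low levels were not confined to cells 23 to 28. Cell 22 had Jun at 2.37 FPKM, Fosb at 0.261 FPKM, Atf3 at 0.0326 FPKM and Nr4a1 at 0. Its Fos, Junb, Jund and Dusp1 were at 2495, 162, 5.28 and 272 FPKM. In all 6 of cells 23 to 28, Fosb, Junb, Atf3 and Nr4a1 were listed at 0. This held for 33.4% of all genes. It held for 7.59% of the genes found in at least 10 of the 17 cells outside the sets, as Fosb, Junb and Atf3 were. Jun, Egr1 and Ier2 were found in all 6, Dusp1 in 5, Fos in 2 and Jund in none. Jun was at 145, 232 and 274 FPKM in cells 23, 24 and 25 and between 1.26 and 2.52 FPKM in cells 26, 27 and 28. Egr1 was at 1525 FPKM in cell 26 and 194 FPKM in cell 25, and between 5.34 and 32.3 FPKM in the other 4. Ier2 was at 1020 FPKM in cell 27, 102 FPKM in cell 25 and at most 14.5 FPKM in the others. Under the 2% limit the lowest of these values would be put at 0. Dusp1 was at 675 FPKM in cell 27, the cell with the high P2ry12, and at most 9.02 FPKM in the other 5. Jun, Egr1 and Ier2 were thus high together in cell 25, while cells 23, 24 and 26 were high in 1 of these genes and cell 27 in Ier2 and Dusp1. Without cell 27 the mean of the 10 genes in neuroblast-like cells stood at -2.57 relative to the other cells, and at -2.47 with it. The part of microglial RNA was not tested.

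The remaining kinds had 1 to 3 cells each and were set against the other cells outside the library sets. Ependymal-like cells 9 and 10 resembled each other, with 9 genes found in each, and cell 15 stood below them with 6. Over the 3 cells, 5 genes were higher past 2-fold and 1, Dusp1 (-3.45), was lower, against 21.5% of all genes higher and 17.2% lower. Atf3 differed by 3.19 and was at 396, 1133 and 52.9 FPKM in cells 9, 10 and 15. Cell 15 held 9 of 14 astrocyte markers at a mean log2(FPKM + 1) of 4.78, against 9 and 8 at 3.82 and 2.63 in cells 9 and 10. It held 5 of 12 microglial markers, against 0 in each of those cells. Without cell 15 the mean of the 10 genes in ependymal-like cells stood 2.55 above all other cells, and 0.96 with it. The part of these markers in cell 15 was not tested. In oligodendrocyte-like cells 1 gene, Fos (1.23), was higher and 6 were lower past 2-fold, against 28.3% higher and 11.2% lower. Fos was at 228, 1085 and 115 FPKM in oligodendrocyte-like cells 4, 12 and 13. All 10 genes were found in cell 12, whereas 4 and 5 were found in the other 2 oligodendrocyte-like cells. Cell 12 also held 10 of 14 astrocyte markers, at a summed level of 1371 FPKM with Aqp4 and Gjb6 at 0, against 3 and 4 of 14 in cells 4 and 13, at 39.4 and 294 FPKM. It held 4 of 12 microglial markers, at 125 FPKM, against 3 and 0. Without cell 12 the mean of the 10 genes in oligodendrocyte-like cells stood at -2.26 relative to all other cells, and at -0.90 with it. The part of these other markers was not tested.

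In the astrocyte-like cells all 10 genes were lower past 2-fold, against 25% of all genes. Cell 11 still had Fos at 323 FPKM, Dusp1 at 82.0 FPKM, Ier2 at 58.8 FPKM and Junb at 31.9 FPKM, whereas in cell 14 only Fos, at 5.85 FPKM, and Jund, at 2.17 FPKM, were found. Jun was at 0.0235 and 0.0213 FPKM in the 2 astrocyte-like cells, below each of the other 15 cells, as 0.496% of all genes were. The lowest of those 15, cell 7, was at 0.0380 FPKM. This separation thus rested on about 0.993 of a fragment in cell 11 against about 1.84 in cell 7, and Jun was also below 1 FPKM in cells 5 and 13. In choroid plexus-like cell 5, 9 of the 10 genes were found, led by Fos at 154 FPKM, and Jun was not, at 0.273 FPKM. Unnamed cell 21 was led by Jun at 342 FPKM, and its other 9 genes were at 19.1 FPKM or less.

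The mean log2(FPKM + 1) over the 10 genes gave the order of the kinds. Microglia-like cells had a median of 7.10 (5.30 to 7.21), ependymal-like cells 6.71 (1.99 to 6.78) and endothelial-like cells 6.39 (2.28 to 8.49). Choroid plexus-like cell 5 was at 4.11, unnamed cell 21 at 2.77, oligodendrocyte-like cells at a median of 2.17 (2.11 to 6.22), neuroblast-like cells at 1.99 (0.93 to 5.27) and the astrocyte-like cells at 0.55 and 2.78. The ranges of the first 3 kinds overlapped, as did those of oligodendrocyte-like, neuroblast-like and astrocyte-like cells, so neighbours in this order did not separate. The 5.27 at the top of the neuroblast-like range was cell 22, and cells 23 to 28 ran between 0.93 and 3.02.

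**Figure D2:**
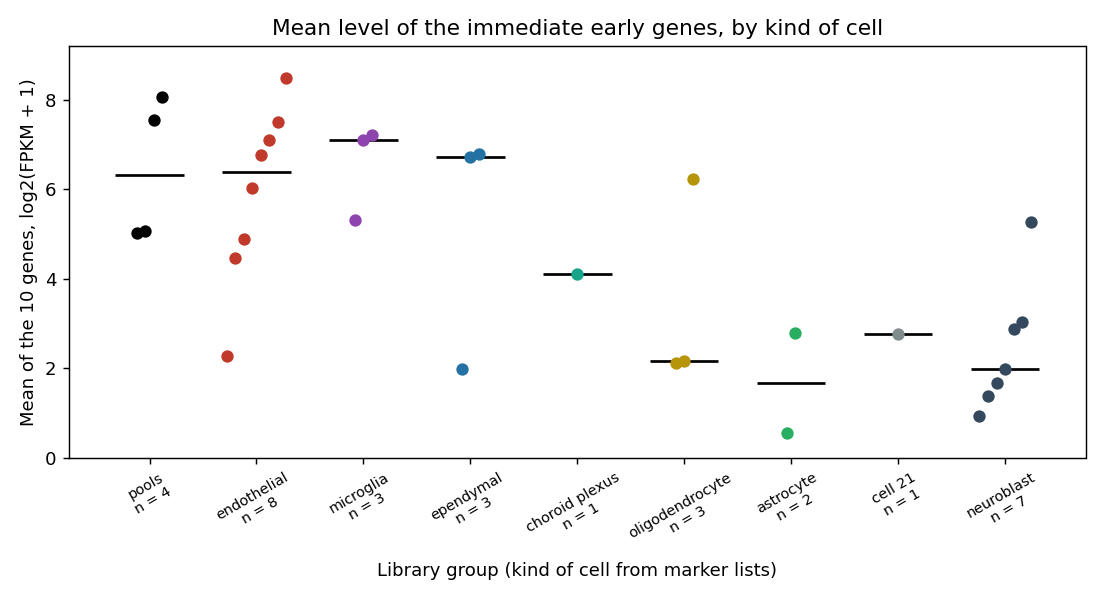
Mean log2(FPKM + 1) of the 10 immediate early genes (y axis) in each library (points), by pools and kind of cell (x axis), with black bars at the median of each group. Medians ran from 1.67 in the astrocyte-like cells to 7.10 in the microglia-like cells, and 1 endothelial-like cell and 1 ependymal-like cell lay far below the rest of their kind.

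The pools showed the same genes in averages of 10 cells. In a pool, fewer cells of a type and less RNA per cell cannot be told apart. All 10 genes were found in all 4 pools, as were 35.5% of genes. The mean over pools divided by the mean over cells, as log2 after adding 1, lay within 2-fold for 9 of the 10 genes. It was -0.17 for Fos, 0.22 for Fosb, -0.48 for Jun, -0.99 for Junb and 0.02 for Jund. It was 0.99 for Atf3, 0.52 for Nr4a1, -0.12 for Ier2 and 0.46 for Dusp1. Egr1 was the exception at -1.47, with 147 ± 94.8 FPKM in the pools (SD, n = 4) and a mean of 410 FPKM in the cells, and it was -0.07 against the 17 cells outside the library sets. Against those 17 cells the sign turned for Junb (0.55), Nr4a1 (-0.19), Jund (-0.51) and Ier2 (0.09). Past 2-fold, 0 genes were higher and 1 lower, against 12.9% and 13.9% of all genes. Lying within 2-fold was thus common to most genes tested and not particular to the 10, of which Junb and Atf3 lay just inside the limit. Against the 17 cells, 0 genes were higher and 0 lower past 2-fold, against 9.55% and 6.82% of all genes. Leaving out pool 3 moved Jun to -1.77, Junb to -1.57, Ier2 to -1.31 and Egr1 to -1.99, and leaving out pool 1 moved Atf3 to 1.37. The scale also mattered: with every library scaled to its upper quartile, the median ratio moved to 1.22 for the 10 genes and to 1.07 for all genes, and with means taken over log values it was 2.22 and 0.95, and the ratio of Egr1 turned to 1.33.

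The pools differed among themselves. For all 10 genes, pools 2 and 3 were each above pools 1 and 4, a split noticed in the data that also held for 16.2% of all genes. On average the 10 genes stood at 7.54 and 8.07 log2(FPKM + 1) in pools 2 and 3, against 5.07 and 5.03 in pools 1 and 4. Endothelial markers moved with it: 12 of 12 were found in pools 2 and 3, with summed levels of 5714 and 7595 FPKM, against 4 and 5 of 12 in pools 1 and 4, with 33.1 and 25.2 FPKM and Cdh5 at 0 in pool 1. Microglial markers summed to 1557 and 226 FPKM in pools 2 and 3, against 82.6 and 43.7 FPKM in pools 1 and 4. Oligodendrocyte markers summed to 7474 and 189 FPKM in pools 2 and 3, against 15253 and 21628 FPKM in pools 1 and 4, and choroid plexus markers to 186 and 160 FPKM against 42153 and 22593 FPKM. The part of cell makeup in the split was not tested.

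**Figure D3:**
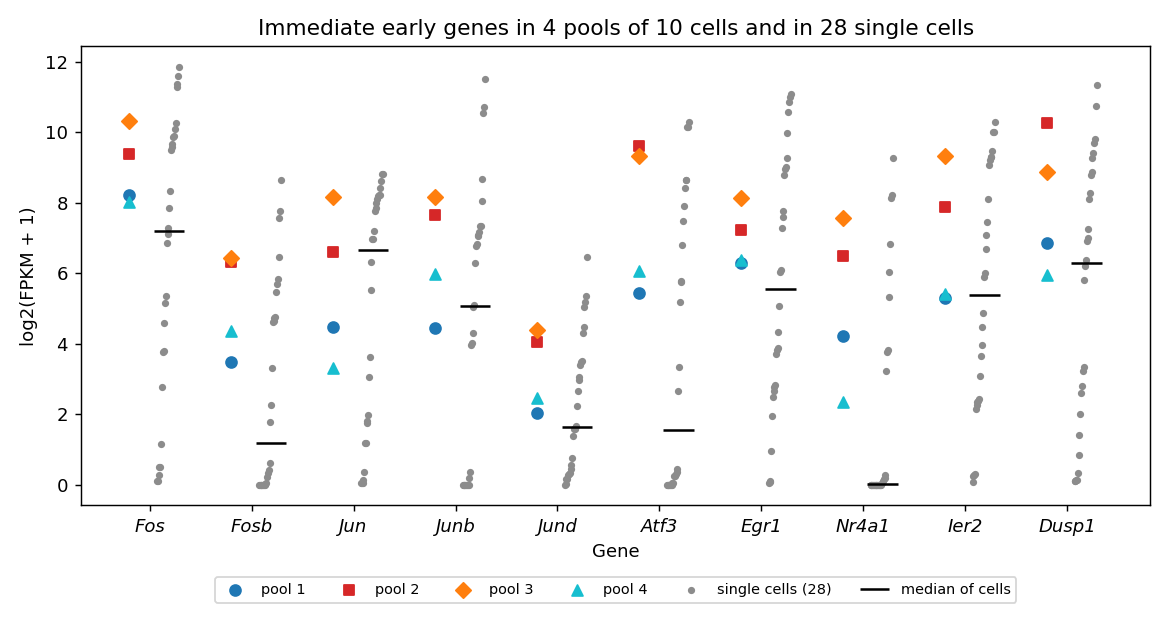
Level of each immediate early gene as log2(FPKM + 1) in the 4 pools (coloured symbols, left) and in the 28 single cells (grey points, right; black bar, median of cells). Pool 2 (red) and pool 3 (orange) lie above pools 1 and 4 for every gene, and the cells span a wider range than the pools.

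Within single cells the 10 genes tended to go together. Over the 28 cells, 44 of the 45 pairs of genes had a Spearman correlation above 0 and 17 had one above 0.5, with a mean of 0.42. Over the 17 cells outside the library sets, again 44 pairs were above 0, 26 were above 0.5 and the mean was 0.49. Cells share library set, depth and, in an unknown way, animal, so these are descriptions. Pairs of other genes were not counted, so whether these counts of pairs were unusual was not tested. Fos and Junb were most alike over 28 cells (0.82), and Ier2 and Atf3 over 17 cells (0.85). The pairs furthest apart were Egr1 and Nr4a1 over 28 cells (-0.12) and Egr1 and Dusp1 over 17 cells (-0.04).

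Set against the mean of the other 9 genes, Fos (0.77), Junb (0.76) and Fosb (0.74) followed the group most closely over 28 cells, and Ier2 (0.86), Nr4a1 (0.76) and Junb (0.76) over 17. Dusp1 followed it least in both, at 0.39 and 0.28. The mean of the 10 genes hardly went with the number of genes found (0.03 over 28 cells and -0.01 over 17) or with the housekeeping mean (0.03 and -0.12). It went with the mean of the endothelial markers at 0.32 and 0.58, and with the share of FPKM on processed pseudogenes at 0.19 and 0.47.

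**Figure D4:**
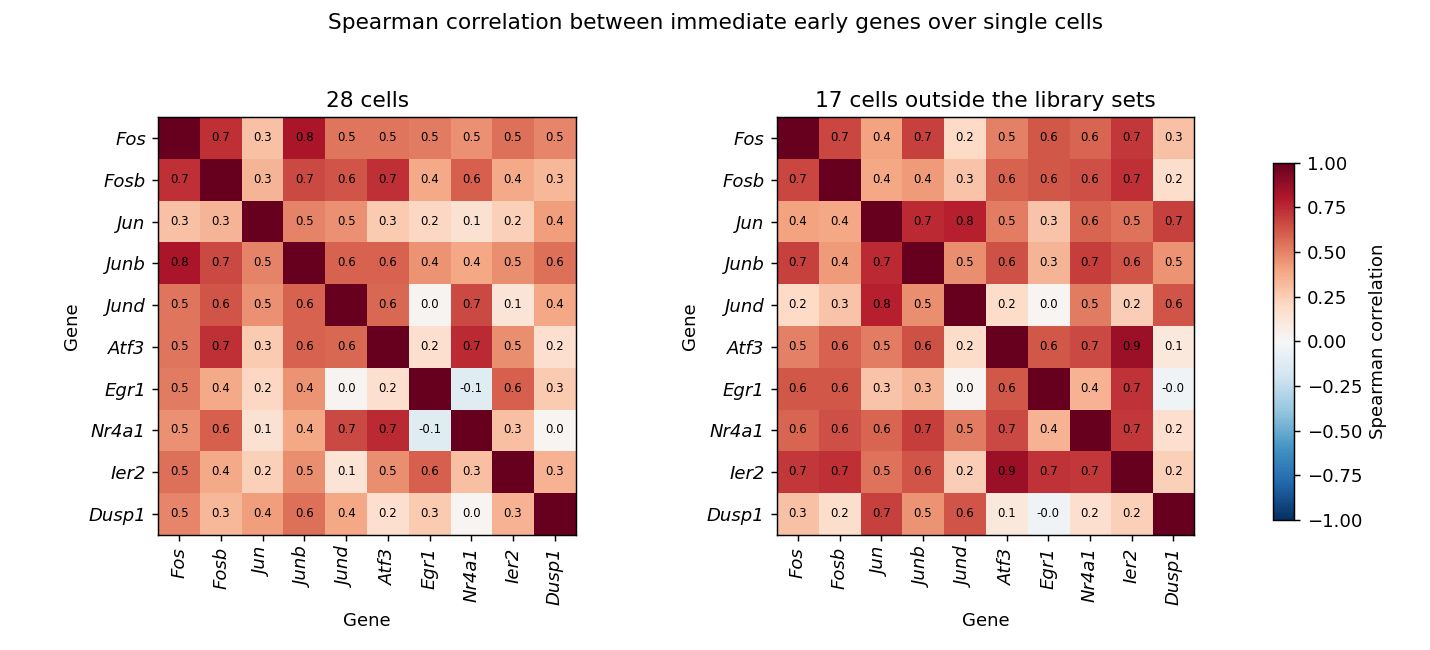
Spearman correlation (colour and number) between each pair of the 10 immediate early genes over the 28 single cells (left) and over the 17 cells outside the library sets (right). Red fills nearly all squares, 44 of 45 pairs being above 0 in each panel, and several of the palest squares pair Egr1 with another gene.

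The genes whose levels followed the mean of the 10 most closely over 28 cells were ranked among 7401 genes found in at least 8 cells, of which 1.80% had a correlation above 0.5. Zfp36, which makes a protein that destabilises early-response mRNAs, came first at 0.76 over 28 cells and 0.56 over 17. Serinc3, a membrane protein of the serine incorporator family, was at 0.75 and 0.73. Sgk1, a kinase induced by serum and glucocorticoids, was at 0.74 and 0.70, and Arf6, a small GTPase of membrane traffic, at 0.73 and 0.78. Next over 28 cells were Pdgfb (0.72), a growth factor that endothelium makes, and Slco2b1 (0.71), an organic anion carrier. The zinc finger factor Klf6 (0.70), Txnip (0.70), which binds thioredoxin, Pdrg1 (0.68) and Surf4 (0.66), a cargo receptor of the endoplasmic reticulum, completed the first 10. Over 17 cells the first 10 were Rpl12 and 9 processed pseudogenes led by Rpl12-ps1 (0.93), and 0 genes were shared between the rankings.

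Zfp36 and Sgk1 were high in the same microglia-like cells as Junb. Zfp36 was at 1006 to 2092 FPKM in microglia-like cells, with a median of 12.4 FPKM in the other 25 cells. Sgk1 was at 168 to 2898 FPKM in microglia-like cells, with a median of 3.46 FPKM in the others. Both overlapped with the other cells, in which they reached 1326 and 364 FPKM.

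Other genes of the response were taken from lists by role. Of 14 other AP-1 and ATF genes, 11 were found in at least 1 cell, and Batf and Jdp2 in no library. Their median correlation with the mean of the 10 genes was 0.01 over 28 cells, and 0 of the 6 found in at least 8 cells were above 0.5. Over all 7401 genes ranked, the median was -0.01 and 1.80% were above 0.5. Atf4, the factor of the integrated stress response, was the most abundant at a mean of 300.3 FPKM over cells, followed by Atf1 at 30.8 FPKM and Atf2 at 30.2 FPKM. In endothelial-like cells 3 of the 11 genes were higher past 2-fold and 0 lower, in microglia-like cells 2 were higher and 5 lower, and in neuroblast-like cells 0 were higher and 4 lower. The shares over all genes were 17.8% higher and 12.8% lower in endothelial-like cells, 6.81% and 35.4% in microglia-like cells, and 9.68% and 25.1% in neuroblast-like cells.

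Of 19 other fast transcription factors, 15 were found in at least 1 cell, and Egr3, Egr4 and Npas4, which strongly stimulated neurons make, in no library. Their median correlation with the mean of the 10 genes was 0.49 over 28 cells. In endothelial-like cells 8 of the 15 were higher past 2-fold and 0 lower, in microglia-like cells 1 was higher and 8 lower, and in neuroblast-like cells 0 were higher and 9 lower, against 17.8% of all genes higher in endothelial-like cells and 35.4% and 25.1% lower in the other 2 kinds. Klf2 and Klf4, factors that respond to blood flow in endothelium, were at medians of 327 and 261 FPKM in endothelial-like cells, and of 0.0404 and 0.00608 FPKM in the others. Id1, an inhibitor of bHLH factors, was at 425 FPKM in endothelial-like cells and at a median of 0 in the others, although 1 of them reached 1079 FPKM.

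Of 24 feedback regulators, 22 were found in at least 1 cell, and Dusp4 in no library. Their median correlation was 0.43, and 7 of the 17 found in at least 8 cells were above 0.5, against 1.80% of all genes ranked. In endothelial-like cells 13 of the 22 were higher past 2-fold and 1 lower, in microglia-like cells 8 were higher and 8 lower, and in neuroblast-like cells 1 was higher and 17 lower. In microglia-like cells 6.81% of all genes were higher and 35.4% lower, whereas 17.8% of all genes were higher in endothelial-like and 25.1% lower in neuroblast-like cells. Nfkbia, the inhibitor of NF-kappa B, was at a median of 919 FPKM in the 8 endothelial-like cells (372 to 2969 FPKM), against 11.99 FPKM in the other 9 cells outside the sets, where it reached 210.0 FPKM, so these groups did not overlap, as held upward for 0.363% of all genes. Btg2, an antiproliferative gene, was at a median of 752 FPKM in microglia-like cells, and of 5.11 FPKM in the others.

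Of 12 genes tied to synaptic activity, 4 were found in at least 1 cell, against 48.7% of all 38740 symbols, and Bdnf, Nptx2, Inhba, Npas4, Egr3, Egr4, Pcsk1 and Scg2 in no library. The 3 highest by mean over cells were Rheb at 49.9 FPKM, Homer1 at 5.11 FPKM and Nr4a2 at 2.16 FPKM. Of 11 secreted and matrix early genes, 7 were found in a cell, and Ctgf, Areg, Il6 and Lif in no library. Cyr61, a matricellular protein, had the highest mean over cells, 27.5 FPKM, with a median of 81.7 FPKM in endothelial-like cells, and Hbegf followed at 16.3 FPKM and Ccl2 at 3.96 FPKM. Of 8 microglial inflammatory genes, 4 of the 6 tested were higher past 2-fold in microglia-like cells and 0 lower, against 6.81% and 35.4% of all genes. The chemokine Ccl3 was at 28.3 to 1206 FPKM in microglia-like cells and at most 4.57 FPKM in the others. Such a separation upward was seen for 0.451% of all genes. Ccl4 was at 14.4 to 1412 FPKM in microglia-like cells, with at most 49.5 FPKM in the others.

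Heat shock genes encode chaperones that damaged or warmed cells make, and 14 of 14 were found. Over 28 cells their mean went with that of the 10 immediate early genes at a Spearman correlation of 0.30, and over the 17 cells at 0.63. Endothelial-like cells had a heat shock mean of 2.73 to 6.91 on the log2(FPKM + 1) scale and ependymal-like cells of 5.58 to 7.03, and the kinds were not uniform in immediate early genes. On the same scale the mean of the 10 genes was 2.28 in cell 7 to 8.49 in cell 17 among endothelial-like cells, and 1.99 in cell 15 to 6.78 in cell 9 among ependymal-like cells. Against the other 9 cells outside the sets, 3 heat shock genes were higher and 5 lower past 2-fold in endothelial-like cells. The median difference was -0.72, against -0.36 over all genes, of which 11.1% were higher and 27.6% lower. Against all other cells, 7 of 14 heat shock genes were higher past 2-fold in endothelial-like cells and 1 was lower. The median difference was then 0.89, against -0.09 over all genes, of which 17.8% were higher and 12.8% lower. Microglia-like cells had the highest median of the 10 genes but a heat shock mean of 0.98 to 1.94, with 0 of 14 heat shock genes higher and 11 lower past 2-fold than in the other 25 cells. Of all genes 35.4% were lower there, and 7 of 12 housekeeping genes. Hspa8, the constitutive chaperone with the highest mean (1760 FPKM over cells), was at 6.92 to 119 FPKM in microglia-like cells, with a median of 1923 FPKM in the others. Hsp90ab1 and Hsp90aa1 followed with means of 861 and 842 FPKM over cells. In the pools the heat shock mean was 7.40 and 6.27 in pools 2 and 3, against 5.34 and 5.07 in pools 1 and 4.

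**Figure D5:**
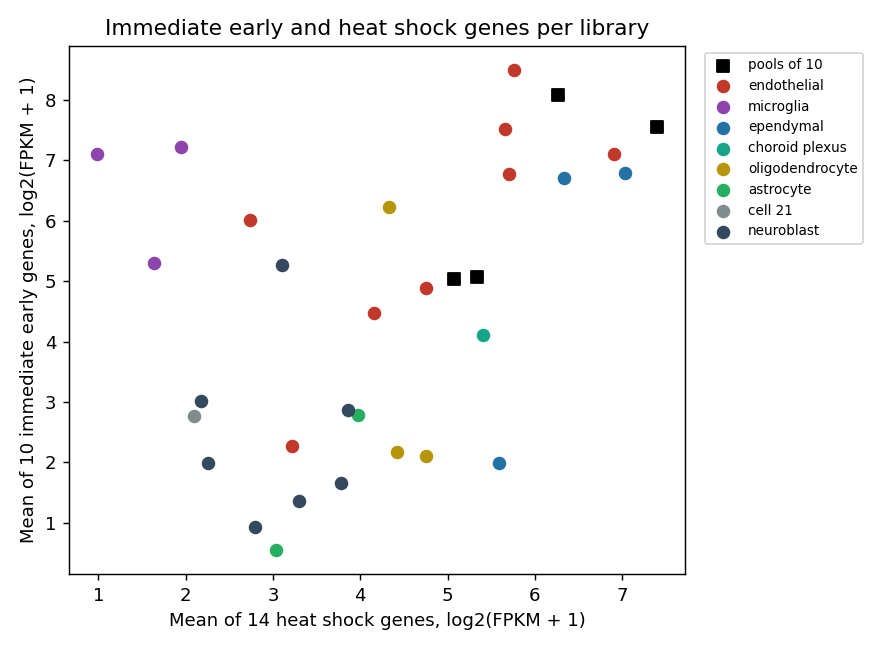
Mean log2(FPKM + 1) of the 10 immediate early genes (y axis) against that of 14 heat shock genes (x axis) in each library, coloured by kind of cell, with pools as black squares. The 3 microglia-like cells stand at the upper left, with 5.30 to 7.21 for immediate early and 0.98 to 1.94 for heat shock genes, and the endothelial-like and ependymal-like cells spread towards the upper right.

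Upstream kinases and factors, which carry the stimulus and are already present in resting cells, were near all genes in their correlation with the mean of the 10. Of 18 such genes 17 were found in at least 1 cell, with a median correlation of 0.02 over 28 cells and 0 of 11 above 0.5. Over all 7401 genes ranked, the median was -0.01 and 1.80% were above 0.5. Mapk14 (p38 alpha), Map2k2 and Mapk3 (ERK1) had the highest means, at 114, 89.3 and 66.1 FPKM over cells. Of 8 apoptosis and p53 genes 7 were found in a cell, with a median correlation of -0.03, and Ddit3, Cdkn1a and Mdm2 led at means of 68.6, 42.6 and 33.6 FPKM. The 12 housekeeping genes, led by Ppia, Rplp0 and Actb at means of 1787, 1514 and 1479 FPKM, had a median correlation of -0.05.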

How the data were processed

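RNA-seq libraries of 28 single cells and 4 pools of 10 cells were used as the authors deposited them, as FPKM per gene in 1 table. TopHat 1.41, Cufflinks 2.02 and the build mm9 are named per the submitters' processing notes. The loci match GRCm38, since 96.0% of 39011 lines carry a GENCODE M21 gene ID, and GRCm38 is the build of all coordinates here. The annotation release, read layout and strand setting were not given in the sources used here. Where several lines had 1 symbol, they were summed, and symbols turned into dates were restored from the gene ID. No 2 libraries were identical. FPKM holds no counts. Depth was estimated in 19 libraries from the step of 1 fragment among 2342 genes with a single exon and transcript and a length from 800 bp up, with an assumed fragment length of 200 bp, at 6166000 to 38905000 fragments. Fragment numbers are therefore approximate.

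The 10 genes, the response lists and the marker lists were chosen with earlier results of these data known. Named genes were the 10, the 3 most abundant members of each list, list members found in no library, and the 10 genes with the highest Spearman correlation with the mean of the 10 over 28 cells, among genes found in at least 8 cells. A cell was given the kind of the list with the highest mean log2(FPKM + 1), with at least 3 markers found. The cycling and erythroid lists were not used as kinds. Cell 21 was microglia-like as deposited and neuroblast-like when values under 2% of a gene's highest value in its library set were put at 0, a limit known from earlier work, and it was left unnamed. Doublets were neither called nor removed.

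Ratios of pools over cells were the log2 of the mean over pools plus 1, divided by the mean over cells plus 1, for 19783 genes found in a library. Kinds were compared by mean log2(FPKM + 1), over genes found in at least 1 of the cells compared. No test was made, because the cells stand for an unknown number of animals and the pools have no second group. Intervals of shares of cells are exact Clopper-Pearson 95% intervals and cover counting error only. The computations were tested on simulated data with python 3.11.15, pandas 2.3.3, numpy 2.4.6, scipy 1.17.1 and matplotlib 3.10.9. The alternatives were other limits for found, pseudocounts, scalings, marker rules and cells or pools left out. The other limits of 1% and 5%, the 2% limit for kinds, pools and the separation of microglia-like cells, and leaving out cells of the larger kinds were added after the data were seen.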

Additional observations from a re-analysis of the deposited data

How the results depend on the processing

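Of 268 alternatives, 255 lay within the spread of the pools or cells (counts within 1.5 times), 12 moved further, and 1 turned a value past 2-fold. The other sign was taken by 36 of them, all ratios of pools over cells that, Egr1 apart, lay within 2-fold as reported. Taking means over log values moved the median ratio of pools over cells for the 10 genes from its reported -0.05 to 2.22, with all genes at 0.95, and reversed Egr1 to 1.33; a mean of logs gives more weight to low cells by construction. Leaving out 1 pool in turn gave medians between -0.63 (without pool 3) and 0.27 (without pool 1), so the sign of that ratio rests on single pools. Leaving out 1 pool, the ratio of pools over cells lay between -0.78 and 0.09 for Fos, -0.19 and 0.55 for Fosb, -1.77 and -0.10 for Jun, -1.57 and -0.64 for Junb, -0.42 and 0.30 for Jund, -1.99 and -1.26 for Egr1, -1.31 and 0.24 for Ier2, -0.48 and 0.91 for Nr4a1, 0.39 and 1.37 for Atf3, and -0.66 and 0.83 for Dusp1.

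Leaving out 1 cell of a kind in turn, the mean log2(FPKM + 1) of the 10 genes in that kind minus that in the other cells lay between 1.93 and 2.82 for endothelial-like cells, 2.17 and 3.12 for microglia-like cells, 0.15 and 2.55 for ependymal-like cells (0.15 without cell 9 and 2.55 without cell 15), -2.26 and -0.20 for oligodendrocyte-like cells (-2.26 without cell 12 and -0.20 without cell 4), -3.95 (without cell 11) and -1.72 (without cell 14) for astrocyte-like cells, and -2.94 (without cell 22) and -2.22 for neuroblast-like cells. Under equal sums and upper quartile scaling, the genes higher and lower past 2-fold were 9 and 0, then 7 and 1, in endothelial-like cells, and 7 and 1 under both in microglia-like cells. In neuroblast-like cells 0 were higher and 8 lower under both. Microglia-like and neuroblast-like cells could not be compared without cells 18 to 28, which hold all of them. The mean correlation of the 10 genes most like the group was 0.72 over 28 cells and 0.62 over the 17 cells outside the library sets; the cause was not tested. No paired analysis was possible because the pools and the cells share no animal or culture in the labels and no test was made.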
